A study of Mus musculus with 6 samples.

Results

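The C/EBP family was followed in megakaryocyte-erythroid precursors (MEPs) of adult Nanog-tg mice by RNA-seq. Its 6 listed members, Cebpa, Cebpb, Cebpd, Cebpe, Cebpg and Cebpz, were found by matching the Ensembl gene identifiers of the deposited table to gene symbols, and all 6 were among its 12101 genes. Untreated and dox-treated mice of strain CD-1 gave 3 libraries each. All of them, the untreated controls included, carried the R26-M2rtTA and Col1a1-tetO-Nanog alleles, an activator expressed from the Rosa26 locus and a Nanog cDNA under a tetracycline operator at Col1a1. Nanog is a pluripotency factor that adult bone marrow normally lacks, and doxycycline (dox), given in the drinking water over 5 days, switches it on throughout the animal rather than in MEPs alone. MEPs were sorted from bone marrow as lineage-negative, c-Kit-positive, Sca-1-negative cells separated by CD34 and CD16/32, both of which are usually low on these precursors of red cells and platelets. The labels do not say whether replicates came from separate animals, so p-values measure the spread between these libraries.

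C/EBP proteins (CCAAT/enhancer-binding proteins) are transcription factors of the bZIP class, which pair through a leucine zipper and bind DNA as dimers. C/EBPα is needed to form granulocyte-monocyte progenitors from common myeloid progenitors, C/EBPβ drives emergency granulocyte production, C/EBPδ is an acute-phase and inflammatory factor, and C/EBPε is needed for late neutrophil and eosinophil maturation. C/EBPγ binds the same sites but lacks an activation domain and is found in most cell types. Cebpz encodes a protein that was named for CCAAT-box binding but has no bZIP domain and belongs with the nucleolar ribosome assembly factors. MEPs lie on the other side of that step, among the precursors of red cells and platelets.

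Promoters are shown for the members with an entry in the RefSeq table and for Fcnb, the granule gene with the lowest fold change among the targets below, so that the letters C/EBP and CCAAT-box proteins read can be seen. Each is the 250 bases before the annotated start, 5' to 3' on the gene's strand, from RefSeq on build GRCm38.p6, which is not the build of the expression table. Capitals mark TTGCNNAA or its reverse complement TTNNGCAA, a relaxed form of the C/EBP site, and CCAAT or its reverse complement ATTGG. The window and the promoters shown were chosen after the matches had been seen.
Cebpa, chr7:35119043-35119292, plus strand: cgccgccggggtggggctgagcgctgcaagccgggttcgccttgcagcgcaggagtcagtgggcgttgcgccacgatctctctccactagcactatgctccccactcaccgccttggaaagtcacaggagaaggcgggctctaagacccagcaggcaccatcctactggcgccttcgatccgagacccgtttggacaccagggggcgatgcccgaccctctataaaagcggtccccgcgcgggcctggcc
Cebpb, chr2:167688665-167688914, plus strand: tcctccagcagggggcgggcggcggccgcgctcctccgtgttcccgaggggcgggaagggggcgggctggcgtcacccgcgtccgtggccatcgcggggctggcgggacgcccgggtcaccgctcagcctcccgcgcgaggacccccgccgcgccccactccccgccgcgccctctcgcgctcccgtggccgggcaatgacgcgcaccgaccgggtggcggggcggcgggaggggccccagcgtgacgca
Cebpg, chr7:35056567-35056816, minus strand: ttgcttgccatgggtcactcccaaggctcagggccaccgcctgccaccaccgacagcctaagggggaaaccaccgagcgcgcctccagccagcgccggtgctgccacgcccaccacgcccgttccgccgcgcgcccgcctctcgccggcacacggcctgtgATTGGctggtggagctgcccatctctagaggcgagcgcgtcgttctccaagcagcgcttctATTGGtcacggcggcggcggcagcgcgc
Fcnb, chr2:28084879-28085128, minus strand: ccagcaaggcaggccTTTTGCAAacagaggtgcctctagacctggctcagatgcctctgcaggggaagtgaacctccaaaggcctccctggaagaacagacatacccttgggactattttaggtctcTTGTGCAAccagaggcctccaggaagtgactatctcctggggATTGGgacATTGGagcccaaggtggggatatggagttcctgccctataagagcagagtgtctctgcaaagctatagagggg
No promoter was taken for Cebpd, Cebpe or Cebpz.

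None of the 3 family promoters held the relaxed C/EBP letters. Cebpg held ATTGG at -89 and at -28 from its start, and Cebpa and Cebpb held no CCAAT box in either direction. Fcnb held the C/EBP letters at -235 and -123 and ATTGG at -81 and -73. Of the 24 myeloid targets described below, 20 had a promoter entry, 6 of which held the C/EBP letters and 6 a CCAAT box. Over all 32851 promoters of this length the C/EBP letters were in 9.56% and CCAAT in 33.9%. In Ltf the matches of both motifs overlap. A match describes letters and does not show binding.

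The libraries held 11264803 to 16153600 reads on the listed genes, so that 1 read was worth 0.0642 to 0.091 CPM (counts scaled to the authors' normalized library size), and 12088 genes passed the filter on low values and were tested. Nanog, the induced gene, was at 1256, 1460 and 1024 CPM in dox-treated replicates 1 to 3 and at 0.739, 0.998 and 0.136 CPM in untreated replicates 1 to 3, a log2 fold change of 11.37 (limma, adjusted p = 0.00349), so the labels matched the induction. The untreated values rest on 9, 13 and 1 reads, and the log2 fold change was 10.49 without untreated replicate 3. Dox-treated replicate 3 stood apart from its group, at -14.8 on the first principal component beside -57.5 and -56.3 for replicates 1 and 2 and 35.1 to 54.2 for untreated MEPs.

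Cebpd and Cebpe fell in dox-treated MEPs, about 7-fold each, and were the members past the test. Cebpa and Cebpb were also lower in every dox-treated library than in every untreated one, but their adjusted p was 0.058, just above the threshold of 0.05. Cebpg and Cebpz overlapped between the groups. Thus 2 of 6 members fell and 0 rose, where 3.18% of all genes tested were called lower and 4.59% higher. The groups did not overlap, with dox lower, for 4 of 6 members and for 18.2% of all genes (dox higher, 17.7%). All 6 had the lower mean with dox, with a median log2 fold change of -1.19 beside -0.03 for all genes. Leaving out untreated replicate 3 brought the count to 0, with log2 fold changes of -2.80 for Cebpd and -2.77 for Cebpe and adjusted p of 0.053 and 0.0528, and leaving out dox-treated replicate 3 brought it to 3, Cebpb being added (limma adjusted p = 0.0347). Over all genes 36 and 1687 were called lower in these fits, beside 384 with all libraries.

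**Figure D1:**
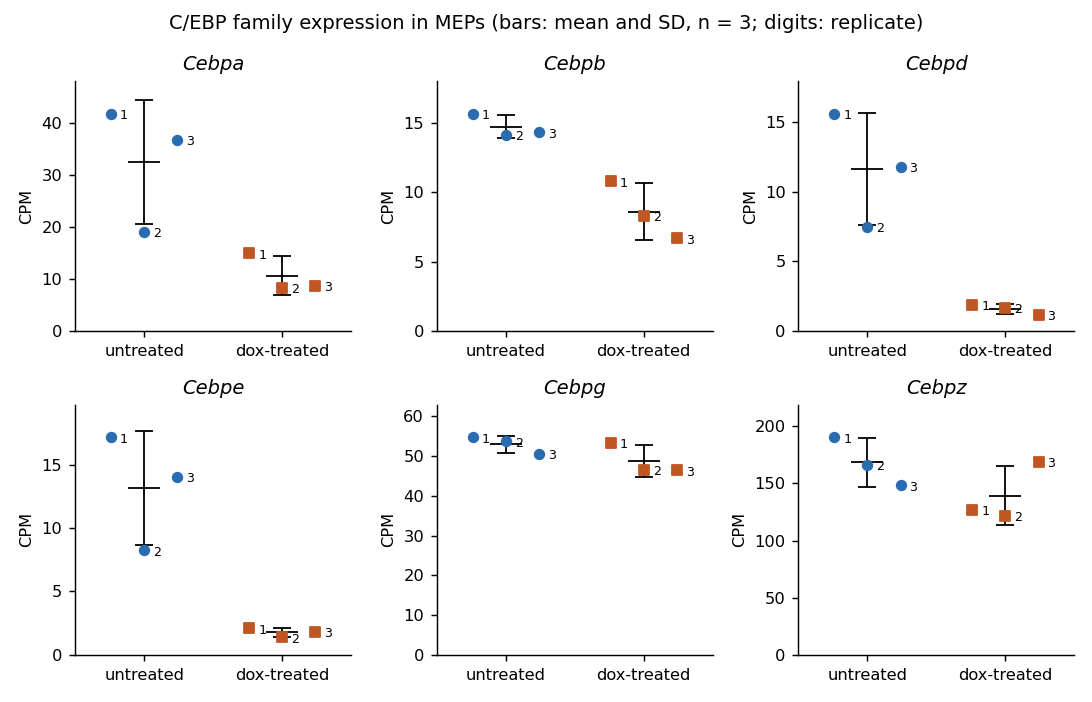
CPM of each C/EBP member (y axis, linear from 0) in untreated and dox-treated MEPs, with one point per library, the replicate number beside it, and the mean and SD of 3 libraries as bars. Points of Cebpa, Cebpb, Cebpd and Cebpe do not overlap between groups, whereas those of Cebpg and Cebpz do.

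Cebpe, the factor of late granulocyte maturation, was at 17.1, 8.24 and 14.1 CPM in untreated replicates 1, 2 and 3 and at 2.10, 1.38 and 1.83 CPM in dox-treated ones. Every dox-treated library was below every untreated one, and the untreated libraries differed among themselves more than the dox-treated. The means were 13.1 ± 4.52 and 1.77 ± 0.364 CPM (SD, n = 3), and the log2 fold change was -2.85 (SE 0.31, 95% interval -3.61 to -2.09, limma adjusted p = 0.0109). These values rest on 111 to 220 reads in untreated and 18 to 28 reads in dox-treated libraries. Cebpe lies on chromosome 14 at 55329200-55331011 of NCBIM37, minus strand, with 1238 exonic bases.

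Cebpd, the acute-phase factor, was at 15.6, 7.50 and 11.8 CPM in untreated replicates 1, 2 and 3. It was at 1.88, 1.68 and 1.19 CPM with dox. The groups were again fully apart, with untreated replicate 2 the lowest of its group as for Cebpe. The means were 11.6 ± 4.05 and 1.58 ± 0.355 CPM (SD, n = 3), and the log2 fold change was -2.84 (SE 0.31, 95% interval -3.61 to -2.08, limma adjusted p = 0.0114). Read numbers were 101 to 200 without and 18 to 25 with dox. The gene lies on chromosome 16 at 15887379-15888559 of NCBIM37, plus strand, where GENCODE M1 cuts its 1180 exonic bases into 2 blocks and types the model as a pseudogene.

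Cebpa, the main determinant of the granulocyte-monocyte fate, was at 41.9, 19.1 and 36.8 CPM in untreated replicates 1, 2 and 3. With dox it was at 15.0, 8.37 and 8.76 CPM. Untreated replicate 2 was closest to the dox-treated libraries, the highest of which was still below it. The means were 32.6 ± 12.0 and 10.7 ± 3.71 CPM (SD, n = 3), and the log2 fold change was -1.58 (SE 0.37, 95% interval -2.49 to -0.67, limma adjusted p = 0.0577). The call depended on the settings, with an adjusted p under 0.05 in 7 of 18 alternatives and a log2 fold change between -1.93 and -1.36 in all of them. Cebpa is a single-exon gene of 2634 bases on chromosome 7 at 35904312-35906945 of NCBIM37, plus strand.

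Cebpb, the factor of emergency granulopoiesis, was at 15.7, 14.2 and 14.3 CPM in untreated replicates 1, 2 and 3 and at 10.8, 8.30 and 6.71 CPM in dox-treated ones. Its untreated libraries lay close together, unlike those of Cebpa, Cebpd and Cebpe. The means were 14.7 ± 0.829 and 8.60 ± 2.06 CPM (SD, n = 3), and the log2 fold change was -0.80 (SE 0.19, 95% interval -1.26 to -0.34, limma adjusted p = 0.0577). The adjusted p was under 0.05 in 9 of 18 alternatives, with a log2 fold change between -1.02 and -0.63. This single-exon gene of 1504 bases, on chromosome 2 at 167514415-167515918 of NCBIM37, shares 312 exonic bases with Tmem189 (ENSMUSG00000090213, log2 fold change 0.14) on the opposite strand, and the use of strand in counting is not stated.

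Cebpg, the member without an activation domain, was at 54.7, 53.8 and 50.6 CPM in untreated and at 53.3, 46.5 and 46.4 CPM in dox-treated replicates 1, 2 and 3. The groups overlapped through dox-treated replicate 1. The log2 fold change was -0.12 (SE 0.11, 95% interval -0.39 to 0.14, limma adjusted p = 0.474), and 0 of 18 alternatives gave an adjusted p under 0.05. The interval reaches neither the size estimated for Cebpb nor those of Cebpa, Cebpd and Cebpe. Cebpg lies 62789 bp from Cebpa on chromosome 7, on the opposite strand, at 35831441-35841522 of NCBIM37.

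Cebpz, the nucleolar member, was at 190.2, 166.3 and 148.2 CPM in untreated and at 126.8, 121.6 and 169.1 CPM in dox-treated replicates 1, 2 and 3. Dox-treated replicate 3 was within the untreated range, while replicates 1 and 2 were below it. The log2 fold change was -0.28 (SE 0.17, 95% interval -0.71 to 0.14, limma adjusted p = 0.32), and 1 of 18 alternatives, array quality weights, gave an adjusted p under 0.05, of 0.047. The 16 exons of Cebpz, 4074 bases on chromosome 17 at 79318346-79336410 of NCBIM37, minus strand, share 312 bases with 1110001A16Rik on the other strand.

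**Figure D2:**
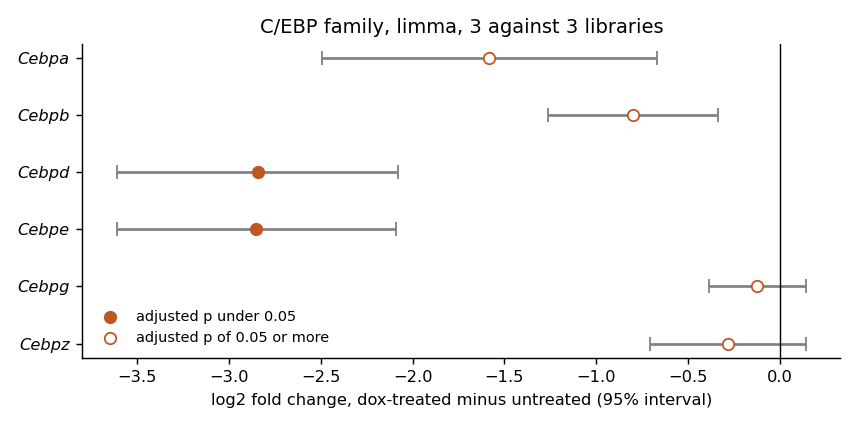
Log2 fold change of each C/EBP member, dox-treated minus untreated (x axis), with its 95% interval from limma on 3 against 3 libraries. Filled points have an adjusted p under 0.05 (Cebpd and Cebpe), and the intervals of Cebpg and Cebpz include 0.

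For 1 gene at a time, the two-sided exact permutation test of mean log2 CPM gave p = 0.1 for Cebpa, Cebpb, Cebpd and Cebpe, the smallest that 3 against 3 libraries allow. The same exact test gave p = 0.2 for Cebpg and p = 0.3 for Cebpz. Among all genes tested, 0.463% had a lower log2 fold change than Cebpe, 0.505% than Cebpd, 1.84% than Cebpa and 4.48% than Cebpb, but 22.8% than Cebpz and 39.6% than Cebpg.

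To compare members with each other, CPM was divided by exonic length. In untreated MEPs the 5 bZIP members lay close together on this scale, with 12.4 ± 4.54 CPM per kb for Cebpa, 10.7 ± 0.432 for Cebpg, 10.6 ± 3.65 for Cebpe, 9.85 ± 3.43 for Cebpd and 9.78 ± 0.551 for Cebpb (SD, n = 3). No neighbours in this order differed beyond their SD, and with the longest transcript in place of all exons Cebpg was at 11.4. Cebpz stood above them at 41.3 ± 5.16 CPM per kb. In dox-treated MEPs the order was Cebpz (34.2 ± 6.39), Cebpg (9.88 ± 0.806), Cebpb (5.72 ± 1.37), Cebpa (4.06 ± 1.41), Cebpe (1.43 ± 0.294) and Cebpd (1.34 ± 0.301). In that order the libraries of Cebpb and Cebpa overlapped, as did those of Cebpe and Cebpd.

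Summed over the 5 bZIP members, the level was 64.5, 40.6 and 55.1 CPM per kb in untreated and 27.0, 20.7 and 19.7 in dox-treated replicates 1, 2 and 3. Every dox-treated sum was below every untreated one. Cebpg made up 17.2%, 26.9% and 18.6% of the sum in untreated libraries and 40.1%, 45.6% and 47.8% in dox-treated ones (two-sided exact permutation test, p = 0.1, the smallest possible). Cebpe made up 19.5% ± 2.71 without and 6.39% ± 1.06 with dox, and Cebpd 18.1% ± 2.41 and 5.96% ± 0.882 (SD, n = 3). Cebpa made up 22.6% ± 4.13 without and 17.8% ± 2.96 with dox. The share of Cebpb was the higher with dox, 18.9% ± 3.78 without and 25.3% ± 2.31 with it. The exact permutation test gave p = 0.2 for the shares of Cebpa and Cebpb. These are shares of mRNA reads per length and not of protein.

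**Figure D3:**
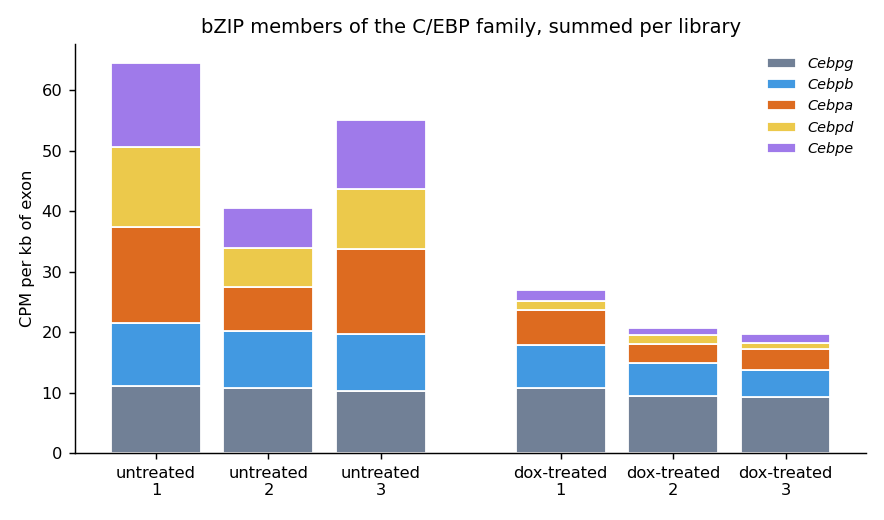
CPM per kb of exon (y axis, from 0) of the 5 bZIP members of the C/EBP family, stacked for each library. The dox-treated sums are 19.7 to 27.0 and the untreated ones 40.6 to 64.5, while the Cebpg segment at the base lies between 9.41 and 11.1 in all 6.

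A ratio of 2 genes within a library does not change with the scaling of libraries, so each member was also set against Cebpg. The log2 ratio of CPM moved by -2.73 for Cebpe, -2.72 for Cebpd, -1.46 for Cebpa and -0.68 for Cebpb, dox-treated minus untreated, with no overlap between groups. For Cebpz it moved by -0.16. The two-sided exact permutation test gave p = 0.1 for the first 4 of these 5 ratios and p = 0.5 for Cebpz.

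Over the 6 libraries, Pearson's r of log2 CPM was 0.984 between Cebpd and Cebpe, 0.957 between Cebpa and Cebpe and 0.95 between Cebpa and Cebpd. Cebpb had an r of 0.938 with Cebpd, 0.919 with Cebpa, 0.901 with Cebpe and 0.862 with Cebpg. The other pairs, all with Cebpg or Cebpz, lay between 0.36 and 0.74. These values describe 6 points that share the group difference and carry no test. Within the untreated libraries 4 of 6 members were highest in replicate 1 and lowest in replicate 2, an order held by 20.1% of all genes and by 12 of 12 granulocyte-monocyte markers.

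Ranked over 9992 genes of at least 5 mean CPM, the pattern most like Cebpd was that of Arsb, a lysosomal sulfatase (r = 0.9996, 6 libraries), followed by Tmem229b, Ldhb, Mpo and F13a1. Those most like Cebpe were Brd8, Myh9, Ly6c2, Irf8 and Ivd (r from 0.998 to 0.992). Ctr9, Dap, Wdr48 and Gnai2 were among those most like Cebpa (0.994 to 0.988), and Zfand5, Gm11847, Tifab, Mdc1 and Anapc13 most like Cebpb (0.994 to 0.982). Cebpg was nearest to Chmp4b (0.991), AW146020 and 1110002L01Rik, and Cebpz to Ppp1cb (0.994), Kif11 and Ghitm. Pearson's r does not measure the size of a change. The log2 fold change was -1.38 for Arsb but -0.14 for Brd8, -0.11 for Ctr9 and -0.11 for Zfand5. All genes named for Cebpd passed limma's test, as did Ly6c2, Irf8 and Tifab, and the other genes named here did not. Without dox-treated replicate 3 most of these names changed, with Ctr9, Arsb, Brd8, Chmp4b and Ghitm still listed for their members.

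Of 24 listed granule and receptor genes that C/EBP factors are known to drive, 13 fell, 0 rose and 11 did not pass the test, with a median log2 fold change of -2.27 beside -0.03 for all genes, where 3.18% of all genes were called lower. The groups did not overlap, with dox lower, for 21 of the 24 and for 18.2% of all genes. For Chi3l3 and Mmp8 the gap was narrow. Dox-treated replicate 2 was at 21.78 and 1.824 CPM, beside 21.88 and 1.865 CPM in untreated replicate 3. By role, 7 of 8 primary granule genes fell, 5 of 11 secondary granule genes and 1 of 5 receptor genes. The count of 13 became 3 without dox-treated replicate 1 and 4, 8 and 1 without untreated replicates 1, 2 and 3, and it was 14 without dox-treated replicate 3. It became 0 with the replicate number as a block and 14 with that block and voom precision weights. Over all 12088 genes, the 384 called lower became 80 without dox-treated replicate 1 and 1687 without dox-treated replicate 3. They became 79, 126 and 36 without untreated replicates 1, 2 and 3. With the block they became 29, and with block and voom weights 351.

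Among primary granule genes, Elane, neutrophil elastase, was at 743.4, 361.3 and 575.3 CPM in untreated and 61.4, 75.9 and 41.2 CPM in dox-treated replicates (log2 fold change -3.22, limma adjusted p = 0.0108). Mpo, myeloperoxidase, was at 2431 ± 939 without and 430.2 ± 94.9 CPM with dox (SD, n = 3, log2 fold change -2.44). Fcnb, the ficolin whose promoter is shown above, had the lowest fold change of the list, at 46.3 ± 22.3 and 2.82 ± 0.808 CPM (log2 fold change -3.96, adjusted p = 0.0101). Prtn3, proteinase 3, and Ms4a3, a membrane protein of granulocyte-monocyte progenitors, fell by 2.79 and 2.48 on the log2 scale. No dox-treated library reached an untreated one for any of these genes.

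Camp, the cathelicidin of secondary granules and a classical C/EBPε target, was at 53.3, 26.5 and 35.1 CPM without and 1.29, 5.62 and 2.66 CPM with dox (log2 fold change -3.77, limma adjusted p = 0.0213). Itgb2l, an integrin of late neutrophil precursors, was at 36, 19 and 30 reads in untreated and 3, 5 and 3 reads in dox-treated libraries and also passed the test (adjusted p = 0.0131). Csf1r, the M-CSF receptor, fell by 1.45 on the log2 scale (adjusted p = 0.0245). Lyz2, Csf2ra and Csf2rb, named after their values were seen, were the 3 targets whose groups overlapped, with log2 fold changes of -0.16, -0.56 and 0.63 (limma adjusted p = 0.808, 0.317 and 0.514).

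**Figure D4:**
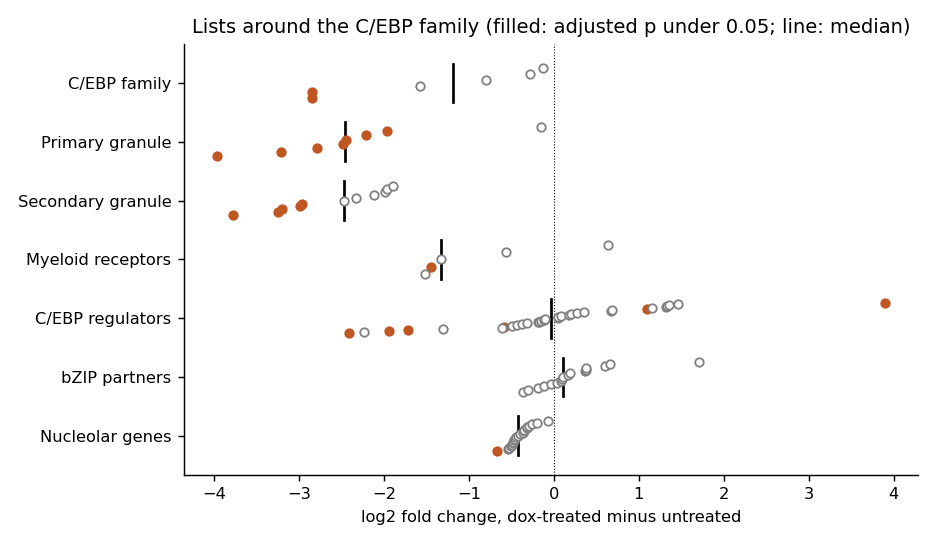
Log2 fold change, dox-treated minus untreated (x axis), of every tested gene in the C/EBP family, its myeloid targets by role, its regulators, bZIP partners and the list read beside Cebpz (nucleolar genes and 2 m6A writers). Filled points have an adjusted p under 0.05 and vertical lines are medians, which lie at -1.19 for the family and near 0 for the regulators and bZIP partners.

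Regulators of C/EBP genes, mRNAs or proteins included genes that fell and genes that rose. Of 32 listed genes 4 fell and 2 rose (all genes, 3.18% and 4.59%), with a median log2 fold change of -0.03. The groups did not overlap for 12 with dox lower and 7 with dox higher, beside 18.2% and 17.7% of all genes. Irf8, a monocyte and dendritic cell factor that works against C/EBPα, fell from 34.5 ± 12.8 to 6.24 ± 1.58 CPM (SD, n = 3, log2 fold change -2.41, limma adjusted p = 0.0185). Id2, an inhibitor of bHLH factors, fell by 1.95 on the log2 scale, and Calr, calreticulin, which can bind C/EBP mRNAs, fell by 0.58 (adjusted p = 0.0481). Id1, a related inhibitor, rose from 4, 4 and 2 reads in untreated to 64, 68 and 56 reads in dox-treated libraries (log2 fold change 3.90, adjusted p = 0.00263).

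Among the Tribbles pseudokinases, Trib1 and Trib2 are known to lead C/EBPα to degradation. Trib1, named after its values were seen, was at 5.56, 3.14 and 3.59 CPM in untreated and 1.141, 1.82 and 0.289 CPM in dox-treated replicates, with the groups apart (log2 fold change -2.23, limma adjusted p = 0.0982). It did not pass the test. Trib2 was at 142.3, 104.6 and 156.0 CPM in untreated and 34.6, 29.7 and 64.3 CPM in dox-treated replicates (log2 fold change -1.71, limma adjusted p = 0.0369). Trib3, a related stress-induced gene, was higher in every dox-treated library and rose by a log2 fold change of 1.10 (adjusted p = 0.018). Its values rest on 29, 30 and 28 reads in dox-treated and 14, 11 and 10 reads in untreated libraries. The adjusted p of Trib3 was under 0.05 in 8 of 17 alternatives. The regulator count of 6 became 1 without dox-treated replicate 1 or 2 and 14 without replicate 3, and it became 3, 3 and 1 without untreated replicates 1, 2 and 3. Over all 12088 genes, 555 were called higher and 384 lower. Without dox-treated replicates 1, 2 and 3 these became 101 and 80, 92 and 91, and 1801 and 1687. Without untreated replicates 1, 2 and 3 they became 136 and 79, 143 and 126, and 99 and 36.

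Spi1, which encodes PU.1 and is listed as Sfpi1, was at 28.8 ± 10.1 CPM with and 25.4 ± 8.87 CPM without dox (SD, n = 3), with a fold change of 0.17 on the log2 scale (limma adjusted p = 0.788) that turned to -0.03 without dox-treated replicate 2 and -0.13 without untreated replicate 2. Gfi1, a repressor in the neutrophil lineage, was at -1.31 on the log2 scale (adjusted p = 0.158) with overlapping groups. Gata2, a progenitor and mast cell factor, was at 285.9, 235.9 and 135.8 CPM with and 79.9, 51.8 and 107.3 CPM without dox (log2 fold change 1.46, adjusted p = 0.0698). None of the 3 passed the test.

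Of 20 bZIP proteins that pair with or resemble C/EBP proteins, 17 were in the table and 0 passed limma's test, with 3 at an unadjusted p under 0.05, beside 3533 of the 12088 genes tested, and a median log2 fold change of 0.11. Ddit3, which encodes CHOP, a stress-induced partner of C/EBP proteins, was at 26.0, 19.5 and 22.6 CPM with and 15.1, 19.4 and 17.97 CPM without dox (log2 fold change 0.37, adjusted p = 0.181). The groups were apart by a narrow margin. CHOP has itself been called C/EBPζ and is a different gene from Cebpz. Hlf, Jund and Batf had log2 fold changes of 1.71, 0.66 and 0.38, with adjusted p of 0.0831, 0.0964 and 0.167. Without dox-treated replicate 3 the count was 3, all higher, with 1801 of all genes called higher there.

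Cebpz was read beside 22 listed genes, most of them for nucleolar ribosome assembly and with Mettl3 and Mettl14, the m6A writers, among them. Of these 21 were tested. Noc4l, a small-subunit assembly factor, fell from 142.2 ± 21.5 to 88.5 ± 5.55 CPM (SD, n = 3, log2 fold change -0.68, limma adjusted p = 0.0463), and the other 20 did not pass the test. All 21 had the lower mean with dox, as did 6367 of the 12088 genes tested, and in 13 the groups did not overlap, beside 18.2% of all genes. The median log2 fold change was -0.42, on the same side of 0 as the -0.28 of Cebpz. The count of 1, beside 3.18% of all genes, became 15 without dox-treated replicate 3, where the number called lower over all genes also went from 384 to 1687. It became 0 without any one of the other libraries, where 36 to 126 of all genes were called lower.

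Markers of other cell types moved with these groups. The summed level of 12 granulocyte-monocyte markers, all in the table and none at 0 reads in any library, was 2386 to 5511 CPM in untreated and 567 to 912 CPM in dox-treated libraries, and 9 of the 12 fell, where 3.18% of all genes were called lower. Cd34, which is also on this list, went the other way. Of these markers 6 are also among the 24 myeloid targets. Fewer such cells in the sorted fraction and less of these RNAs per cell cannot be told apart in bulk libraries, for Cebpa, Cebpb, Cebpd and Cebpe as for their targets.

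Of the genes behind the sort gate, Cd34 and Fcgr3 were on the lists. Cd34, whose product is usually low on MEPs, was at 57.7, 23.8 and 48.2 CPM in untreated and 171.7, 129.2 and 62.8 CPM in dox-treated replicates (log2 fold change 1.46, limma adjusted p = 0.114). Fcgr3, which encodes CD16, was at 27.9, 11.4 and 19.1 CPM without and 11.3, 10.2 and 6.13 CPM with dox (log2 fold change -1.03, adjusted p = 0.146). Neither passed the test, though in neither did the groups overlap.

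The defining markers of the labelled cells were present in every library. The summed level of 10 erythroid markers, Gata1 and Klf1 among them, was 2492 to 2917 CPM without and 1527 to 2320 CPM with dox, and that of 8 megakaryocyte markers 86.5 to 124.7 and 126.7 to 430.7 CPM. Within the megakaryocyte list 2 genes rose, the platelet glycoproteins Gp9 (log2 fold change 1.28, limma adjusted p = 0.0321) and Gp1ba (0.90, adjusted p = 0.0486), and 1 fell, where 4.59% of all genes were called higher and 3.18% lower. Itga2b, which encodes CD41, was the largest part of this sum in every dox-treated library. It was at 319.1, 314.1 and 66.9 CPM with and 37.5, 24.1 and 39.3 CPM without dox (log2 fold change 2.52, limma adjusted p = 0.0694). Vwf, von Willebrand factor, fell by 1.31 (adjusted p = 0.0182), and Gp1bb and Pf4 were at -1.32 and -0.998 (adjusted p = 0.0958 and 0.138). Eosinophil markers, of which 3 of 8 were in the table, summed to 16.6 to 26.2 CPM without and 7.63 to 11.5 CPM with dox. Of these 3, Epx and Prg2, eosinophil granule genes, fell by 2.58 and 2.28 on the log2 scale (limma adjusted p = 0.00666 and 0.0325), where 3.18% of all genes were called lower, and Siglecf, listed as Siglec5, was at 0.16 with overlapping groups (adjusted p = 0.752). Mast cell and basophil markers, 7 of 14 in the table, summed to 111.9 to 139.2 CPM without and 227 to 256.1 CPM with dox, and 3 of them rose, where 4.59% of all genes were called higher. Gzmb and Mcpt8 of the same list had log2 fold changes of -3.42 and -0.93 (limma adjusted p = 0.0525 and 0.201). Lymphoid markers, 6 of 9 in the table, summed to 8.55 to 18.5 and 10.9 to 27.6 CPM, with 0 past limma's test and 0 at an unadjusted p under 0.05. The part of these marker differences in the C/EBP values was not tested.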

How the data were processed

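RNA of sorted MEPs was sequenced on an Illumina GAIIx from 3 dox-treated and 3 untreated replicates. The authors trimmed adapters with Cutadapt, used RSEM with Ensembl transcripts of NCBIM37 and normalized in limma. The deposited values are log2 CPM with 0.5 reads added, for 12101 genes left after a filter. CPM here is 2 to the power of the deposited log2 value, so it holds those 0.5 reads. The lowest value of a library was taken as 0 reads, which gave the reads behind the others, and 100% of values were whole within 0.01 reads. Depth was 11264803 to 16153600 reads on listed genes.

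Groups were taken from the sample titles. The 12088 genes that reached 1 CPM in 3 libraries or more were fitted with limma 3.58.1 in R 4.3.3 (lmFit, eBayes, Benjamini-Hochberg over all of them, threshold 0.05). The study's methods name limma and the Benjamini-Hochberg adjustment, while the filter and the fit were chosen here. The script was tested on simulated data. Symbols, positions and lengths came from GENCODE M1, which named 12067 genes. Alternatives changed the pseudocount, filter, variance model, weights, scaling, GC trend and replicate block, or left out each library.

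The members and gene lists were chosen with earlier results of these data known. The named genes were all members, Nanog, up to 8 called genes per list (or the 4 with the smallest p), and Ddit3, Spi1, Gfi1, Gata2 and Noc2l, the last of which had no identifier match and was not analysed here, plus the 5 patterns most like each member (3 for Cebpg and Cebpz), 1 of which is not reported here, and the cell type markers. No promoter entry was used for 4 of the 24 targets. Exact tests were two-sided permutation tests.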

Additional observations from a re-analysis of the deposited data

How the results depend on the processing

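The count of family members past the threshold (2) was 4 with log2(CPM + 1), with a filter of 5 CPM, with a variance trend on the mean, with voom precision weights and with quantile normalization, and 5 with array quality weights. Without 1 library it ranged from 0 to 3. No member changed sign in any of the 18 alternatives. The myeloid target count (13) ranged from 1 to 14 without 1 library. The regulator count (6) was 19 with array quality weights and ranged from 1 to 14 without 1 library. The bZIP partner count (0) was 5 with array quality weights, 2 with a variance trend and 1 with the GC trend removed, and ranged from 0 to 3 without 1 library. The nucleolar count (1) was 2 with the 5 CPM filter, 8 with the variance trend, 5 with voom, 19 with array quality weights and 0 with the GC trend removed, and ranged from 0 to 15 without 1 library. The fold change of Spi1 reversed to -0.03 without dox-treated replicate 2 and to -0.13 without untreated replicate 2, and was at most 0.50 without 1 library. Over all 12088 genes, 384 lower and 555 higher calls became 2601 and 2515 with array quality weights, 1687 and 1801 without dox-treated replicate 3 and 29 and 53 with the replicate block. Without any one of the other libraries, 36 to 126 genes were called lower and 92 to 143 higher. The causes were not tested.

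Same-numbered libraries did not deviate together (r = 0.0184, -0.121 and -0.299 for numbers 1 to 3), so the numbers were not taken to pair samples. With the replicate block the family count was 1, the myeloid target count 0, the regulator count 3, the bZIP partner count 0 and the nucleolar count 0. With the block and the GC trend removed the family count was 2, the myeloid target count 0, the regulator count 2, the bZIP partner count 0 and the nucleolar count 0. With the block and voom weights the family count was 3, the myeloid target count 14, the regulator count 7, the bZIP partner count 1 and the nucleolar count 1. In the same order, these fits called 29, 23 and 351 of all genes lower and 53, 48 and 575 higher.

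The planned quasi-likelihood count test was not run on the recovered reads, for which voom precision weights were used. In dox-treated libraries Cebpd and Cebpe rest on 18 to 28 reads each, which limits the precision of their fold changes. Without untreated replicate 3 the family calls were lost at log2 fold changes of -2.80 (Cebpd) and -2.77 (Cebpe). The use of strand in counting is not given in the sources used here.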
